A study of Mus musculus with 3 samples.

Results

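Late erythroid cells are the maturing red cell precursors among the cells of a mouse cochlea preparation. They were chosen by measured levels, as every kept barcode in which Alas2, the erythroid enzyme of the first step of heme synthesis, and Slc4a1, the band 3 anion exchanger of the red cell membrane, together made up at least 20 of every 10000 UMIs (unique molecular identifiers, which count captured RNA molecules). This gave 1955 of 37188 kept barcodes. A barcode was kept if it held at least 500 UMIs and 200 genes, with at most 20% of its UMIs from mitochondrial genes.

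The study profiled cochlear cells of C57BL/6J mice, an inbred strain, after noise. In the NIHL group (noise-induced hearing loss) the noise was at 115 dB and lasted 4 h on 3 days, in the HHL group (hidden hearing loss) it was at 110 dB and lasted 2 h, and control mice heard none. The cochlea was taken 6 h after the last exposure, and cells of 6 mice were pooled into 1 library per group, so no animal can be told from another. The deposit pools all barcodes, each ending in 3, 2 or 1 for its library, and no label says which group a number stands for. The libraries are therefore called 3, 2 and 1, no value is read as an effect of noise, and with 1 sample per library there is no test: intervals are 95% intervals that cover counting error only, and neither mice nor preparations are replicated.

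Erythroid precursors mature in the bone marrow next to macrophages. They divide a few times while they fill with hemoglobin, then stop dividing, condense and expel the nucleus, and become reticulocytes. Reticulocytes clear their mitochondria and ribosomes as they mature. Hemoglobin needs alpha-globin and beta-globin chains and heme, which is made from glycine and succinyl-CoA with iron that the transferrin receptor brings in. GATA1 and KLF1 are the best known transcription factors of the lineage, and they bind GATA and CACCC motifs.

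Promoter sequences of a few genes that the results turn on are shown first: the rule gene Alas2 and the marker Hemgn, 1 gene of each adult globin pair, and, of 4 interferon response genes considered, the 3 whose windows hold the interferon response element. Each run holds the 250 bases before the annotated start of the gene, 5′ to 3′ on the gene's strand, from RefSeq on GRCm38.p6, which is not the build of the counts (GRCm39). Capitals mark matches, on either strand, to 3 motifs. The GATA motif was spelled AGATAA, and the spelling TGATAA counted as well. The CACCC motif was spelled CCACNCCC, and the interferon response element was GAAA, any 2 bases, and GAAA again. The windows are chrX:150547167-150547416 (plus strand) for Alas2, chr4:46404184-46404433 (minus strand) for Hemgn, chr7:103827929-103828178 (minus strand) for Hbb-bs, chr11:32283422-32283671 (plus strand) for Hba-a1, chr4:156200819-156201068 (minus strand) for Isg15, chr12:26456453-26456702 (minus strand) for Rsad2 and chr19:34640639-34640888 (plus strand) for Ifit1.
Alas2: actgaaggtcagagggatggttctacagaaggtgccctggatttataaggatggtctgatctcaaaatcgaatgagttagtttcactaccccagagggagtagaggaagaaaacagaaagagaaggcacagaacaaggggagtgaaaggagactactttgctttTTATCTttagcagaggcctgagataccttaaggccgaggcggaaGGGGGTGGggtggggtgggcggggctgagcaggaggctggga
Hemgn: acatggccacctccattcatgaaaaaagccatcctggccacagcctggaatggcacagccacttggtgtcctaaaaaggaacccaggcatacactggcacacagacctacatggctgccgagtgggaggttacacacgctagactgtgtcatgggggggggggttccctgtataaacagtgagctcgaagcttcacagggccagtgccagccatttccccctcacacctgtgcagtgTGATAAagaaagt
Hbb-bs: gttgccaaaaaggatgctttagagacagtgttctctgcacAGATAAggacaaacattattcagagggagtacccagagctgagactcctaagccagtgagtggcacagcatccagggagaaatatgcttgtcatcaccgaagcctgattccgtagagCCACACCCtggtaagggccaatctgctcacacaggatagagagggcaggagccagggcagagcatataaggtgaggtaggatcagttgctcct
Hba-a1: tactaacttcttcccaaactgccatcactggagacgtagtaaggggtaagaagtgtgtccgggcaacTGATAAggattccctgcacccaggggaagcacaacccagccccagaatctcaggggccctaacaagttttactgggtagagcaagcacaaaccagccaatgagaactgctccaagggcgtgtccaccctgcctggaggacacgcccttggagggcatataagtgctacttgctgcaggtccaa
Isg15: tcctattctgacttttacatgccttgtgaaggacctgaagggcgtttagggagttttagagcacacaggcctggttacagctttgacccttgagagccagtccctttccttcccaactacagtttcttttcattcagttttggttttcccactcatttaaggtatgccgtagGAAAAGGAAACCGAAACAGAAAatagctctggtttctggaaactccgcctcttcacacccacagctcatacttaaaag
Rsad2: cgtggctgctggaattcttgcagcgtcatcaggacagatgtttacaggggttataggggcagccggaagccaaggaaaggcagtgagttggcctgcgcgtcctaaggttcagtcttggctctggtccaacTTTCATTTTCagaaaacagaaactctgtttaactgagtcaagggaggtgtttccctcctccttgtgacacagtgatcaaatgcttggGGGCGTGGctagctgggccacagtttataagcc
Ifit1: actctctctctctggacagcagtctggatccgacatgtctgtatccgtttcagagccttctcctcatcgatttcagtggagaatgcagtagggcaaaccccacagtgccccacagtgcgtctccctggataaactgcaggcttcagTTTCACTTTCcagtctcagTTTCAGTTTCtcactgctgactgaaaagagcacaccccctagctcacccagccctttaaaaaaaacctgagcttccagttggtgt
A GATA match stood in the windows of Alas2, Hemgn, Hbb-bs and Hba-a1, with a CACCC match in Alas2, Hbb-bs and Rsad2. Of other windows looked at and not shown, that of Klf1 held 1 GATA match, and those of Bpgm and Tent5c held none. Isg15 held 3 interferon element matches that overlap each other, Ifit1 held 2 and Rsad2 held 1, while the window of Irf7, not shown, held none. Of all 32851 RefSeq promoters of the same length, 16.6% held a GATA match, 15.9% a CACCC match and 2.98% an interferon element match. The GATA motif stood in 3 of the 4 adult globin promoters. Among genes that had an entry, it stood in 2 of 11 heme, 1 of 14 ubiquitin and 5 of 15 surface protein genes. The interferon element stood in 7 of the 14 interferon response genes that had an entry. A match describes the letters in the window and is not a binding site. Slc4a1 and Xpo7 are named without a sequence.

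The 11344, 10028 and 17720 deposited barcodes of libraries 3, 2 and 1 held 146324872, 93048140 and 132576349 UMIs. Late erythroid cells were 471 of 10703 kept barcodes in library 3, or 4.40% (exact binomial interval 4.02 to 4.81). They were 1392 of 9602 in library 2, or 14.5% (13.8 to 15.2), and 92 of 16883 in library 1, or 0.545% (0.440 to 0.668). The 3 intervals do not overlap, and library 2 had the highest share. Early erythroid cells, taken as kept barcodes below that limit with at least 1 UMI of Klf1 and with Klf1, Car1 and Ermap at 10 or more per 10000 UMIs, numbered 722, 451 and 43 in libraries 3, 2 and 1. There were thus 0.652 late cells per early cell in library 3, 3.09 in library 2 and 2.14 in library 1. No barcode sequence was shared between late erythroid cells of different libraries, while 31 (libraries 3 and 2), 53 (3 and 1) and 46 (2 and 1) were shared among all kept barcodes. A doublet caller marked 11, 128 and 1 late cells of libraries 3, 2 and 1 as likely pairs of cells, and they were kept.

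The limit of 20 per 10000 falls in the middle of a continuous range. The median of Alas2 and Slc4a1 together was 25.7 per 10000 UMIs in late cells of library 3, 40.8 in library 2 and 33.7 in library 1. Between 20 and 25 per 10000 lay 213, 172 and 22 members of libraries 3, 2 and 1. Just outside, between 15 and 20, lay 275, 153 and 29 other barcodes. The median hemoglobin share was 82.6% just inside and 55.7% just outside in library 3, 19.5% and 12.8% in library 2, and 16.8% and 8.87% in library 1. Because hemoglobin UMIs are part of the denominator, cells very rich in hemoglobin could miss the limit: 216 barcodes of library 3, 46 of library 2 and 1 of library 1 had at least 60% hemoglobin UMIs and were not members.

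The label was checked against the third marker, Hemgn, a nuclear protein of the red cell lineage that the rule did not use, and against the adult globins. With every cell thinned to 1000 UMIs, Hemgn was seen in 20.5% of late cells of library 3, against 38.2% of early cells and 2.24% of kept cells of neither kind. In library 2 the shares were 54.9% of late, 36.3% of early and 2.37% of cells of neither kind, and in library 1 44.0%, 37.2% and 0.34%. Unthinned, the shares in late cells were 34.0%, 74.9% and 67.4% in libraries 3, 2 and 1, at median depths of 7682, 7196.5 and 5262.5 UMIs. Hbb-bs, the major adult beta-globin gene, had a UMI in every late cell after thinning, but also in 57.1%, 74.1% and 5.19% of cells of neither kind in libraries 3, 2 and 1, so its presence alone does not mark a cell. Hemgn and the globins thus fit the label in libraries 2 and 1, while in library 3 most late cells held little Hemgn and much hemoglobin. S100a8, a neutrophil gene that red cell precursors should lack, was seen in 80.8%, 69.0% and 72.6% of late cells of libraries 3, 2 and 1 after thinning, against 88.2%, 82.7% and 91.3% of cells of neither kind. A UMI of an abundant gene is therefore not read as expression below.

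The adult globins took up a large part of the RNA of these cells. Hemoglobin (Hba-a1, Hba-a2, Hbb-bs and Hbb-bt together) made up a median of 79.6% of a late cell's UMIs in library 3, 47.2% in library 2 and 21.1% in library 1. In early cells the medians were 1.18%, 0.637% and 4.08%, and in all other kept cells, early cells included, 0.159%, 0.316% and 0%. Below, other kept cells always include the early cells. Late cells held 46.3% of all hemoglobin UMIs of kept barcodes in library 3, 81.2% in library 2 and 53.9% in library 1. Hba-a1 and Hba-a2, and likewise Hbb-bs and Hbb-bt, are near-identical copies, so the split of reads within a pair is uncertain. The embryonic globins Hbb-y, Hbb-bh1, Hbb-bh2 and Hba-x had 1, 17 and 1 UMIs in all late cells of libraries 3, 2 and 1. Ahsp, the chaperone of free alpha-globin, was on the hemoglobin list and has no value here.

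**Figure D1:**
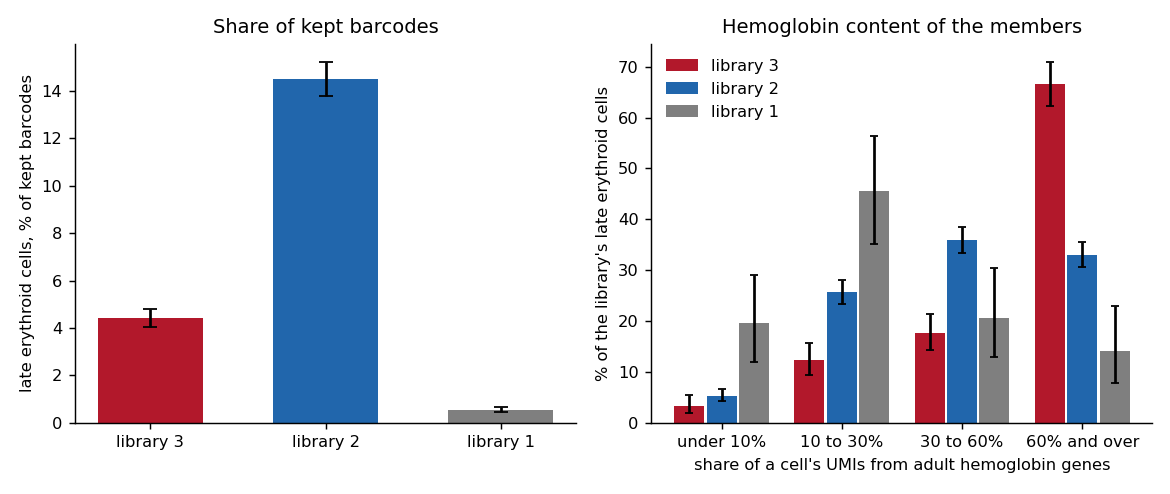
Left, late erythroid cells as a percent of kept barcodes in each library. Right, percent of each library's late erythroid cells by the share of their UMIs that came from adult hemoglobin genes; bars are values and whiskers exact 95% binomial intervals. Library 2 had the highest share of late cells (14.5%), and 66.7% of those of library 3 had at least 60% hemoglobin, against 33.0% in library 2 and 14.1% in library 1.

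Late cells were ordered by their hemoglobin share. The 4 ranges used, under 10%, 10 to 30%, 30 to 60%, and 60% and over, cut a continuous score and are not cell types. In library 3 they held 16, 58, 83 and 314 cells, in library 2 74, 358, 500 and 460, and in library 1 18, 42, 19 and 13. The top range held 66.7% (62.2 to 70.9) of late cells in library 3, 33.0% (30.6 to 35.6) in library 2 and 14.1% (7.74 to 23.0) in library 1. Since the lowest range of library 3 and 3 of the ranges of library 1 hold under 20 cells, counts of genes compare the top range with 10 to 30%, in libraries 3 and 2. From here, a level is given as CPM, the UMIs of a gene per 1000000 UMIs that are not hemoglobin, so that the globins themselves do not dilute the other genes.

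Cells in the top range held fewer genes. A cell held a median of 1239, 2795, 2061 and 520 genes in library 3 from the lowest to the highest hemoglobin range, and 1053.5, 2655.5, 1637 and 632 in library 2. Thinned to 500 non-hemoglobin UMIs per cell, the medians were 356, 359.5, 358 and 296 genes in library 3 and 355, 364, 367 and 305 in library 2. The top range was thus the lowest at equal depth too. Ribosomal protein genes made up 14.8%, 22.7%, 13.6% and 8.62% of non-hemoglobin UMIs in library 3 over the same ranges, and 22.1%, 22.2%, 10.3% and 5.46% in library 2. A gene counts as measured in a comparison where its UMIs sum to at least 50 over the cells compared, so a gene can pass through the side where it is high. Of 2757 genes measured in library 3, 12% were at least 2-fold higher in the top range than at 10 to 30%, and 42.8% at least 2-fold lower, with a median log2 ratio of -0.79. In library 2, of 6205 genes, 10.4% were higher and 48.1% lower, with a median of -0.94.

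DNA replication genes were low in the cells richest in hemoglobin. Of the 18 on the list, all 16 measured in library 3 and all 17 measured in library 2 were at least 2-fold lower in the top range than at 10 to 30%. Pcna, the sliding clamp of DNA polymerase, had levels of 837, 1000.2, 645 and 146 CPM from the lowest to the highest range in library 3 and 1025, 1361, 1063 and 105 in library 2. Mcm7, a subunit of the replicative helicase, had 451, 558, 293 and 83.9 CPM in library 3 and 490.0, 546, 402 and 53.9 in library 2. For both genes the first 3 ranges lay well above the fourth. Summed over the 18 genes of the list, the level was 5669, 7059.9, 4709 and 1096 CPM in library 3 and 7125, 8255, 6732 and 899 in library 2.

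Genes of G2 and mitosis peaked at a higher hemoglobin share than those of replication. Their summed level over 22 genes was 10651, 14853, 16577 and 4785 CPM from the lowest to the highest range in library 3 and 12330.4, 17085, 25550.5 and 11554 in library 2, highest in both at 30 to 60% hemoglobin. In the top range against 10 to 30%, 20 of 22 genes measured were at least 2-fold lower in library 3 and 9 of 22 in library 2, against 42.8% and 48.1% of all genes, so the share in library 2 is near that of all genes. Mki67, a marker of dividing cells, had 2469.5, 2496, 2974 and 538 CPM in library 3 and 1665, 2253, 3815 and 1389 in library 2. Hmgb2, a chromatin protein of dividing cells, had 2469.5, 4276, 4119 and 790.1 CPM in library 3 and 4303, 5804, 7139 and 2729.9 in library 2. Both genes were lowest in the top range in both libraries, by a wider margin in library 3.

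The opposite pattern held for genes of ubiquitin conjugation and late remodelling. Of the 17 on the list, 15 were measured in library 3 and 10 of these were at least 2-fold higher in the top range than at 10 to 30%, and in library 2 it was 11 of 16, with median log2 ratios of 2.65 and 3.03. Xpo7, a nuclear export receptor tied to nuclear condensation in mouse erythroblasts, had 172, 251, 631 and 2815 CPM from the lowest to the highest range in library 3 and 47.5, 92.0, 435 and 7608 in library 2. Ube2o, a hybrid ubiquitin enzyme that clears proteins from reticulocytes, had 279, 146, 480.0 and 2029 CPM in library 3 and 72.5, 109, 320.0 and 2336 in library 2. Ubb, a ubiquitin gene, had 644, 944, 1999.7 and 13076 CPM in library 3 and 600.0, 798, 1433 and 6527 in library 2. The steepest step of all 3 genes lay between the third and the fourth range in both libraries.

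Mitophagy genes followed. At least 2-fold higher in the top range than at 10 to 30% were 6 of 10 genes measured in library 3 and 7 of 13 in library 2. Bnip3l, the mitochondrial receptor that reticulocytes need to clear their mitochondria, had 387, 418, 735 and 4247 CPM from the lowest to the highest range in library 3 and 278, 295, 540.5 and 3709 in library 2. Gabarapl2, an autophagosome protein, had 129, 238, 416 and 2437 CPM in library 3 and 138, 232, 455 and 1901 in library 2. Map1lc3b, another autophagosome protein, had 150.3, 382, 602 and 3387 CPM in library 3 and 293, 345, 681 and 2067 in library 2. Lamp1, a lysosome membrane protein on the same list, was lowest in the top range, with 172, 274, 291 and 136 CPM in library 3 and 233, 188, 126 and 91.8 in library 2.

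**Figure D2:**
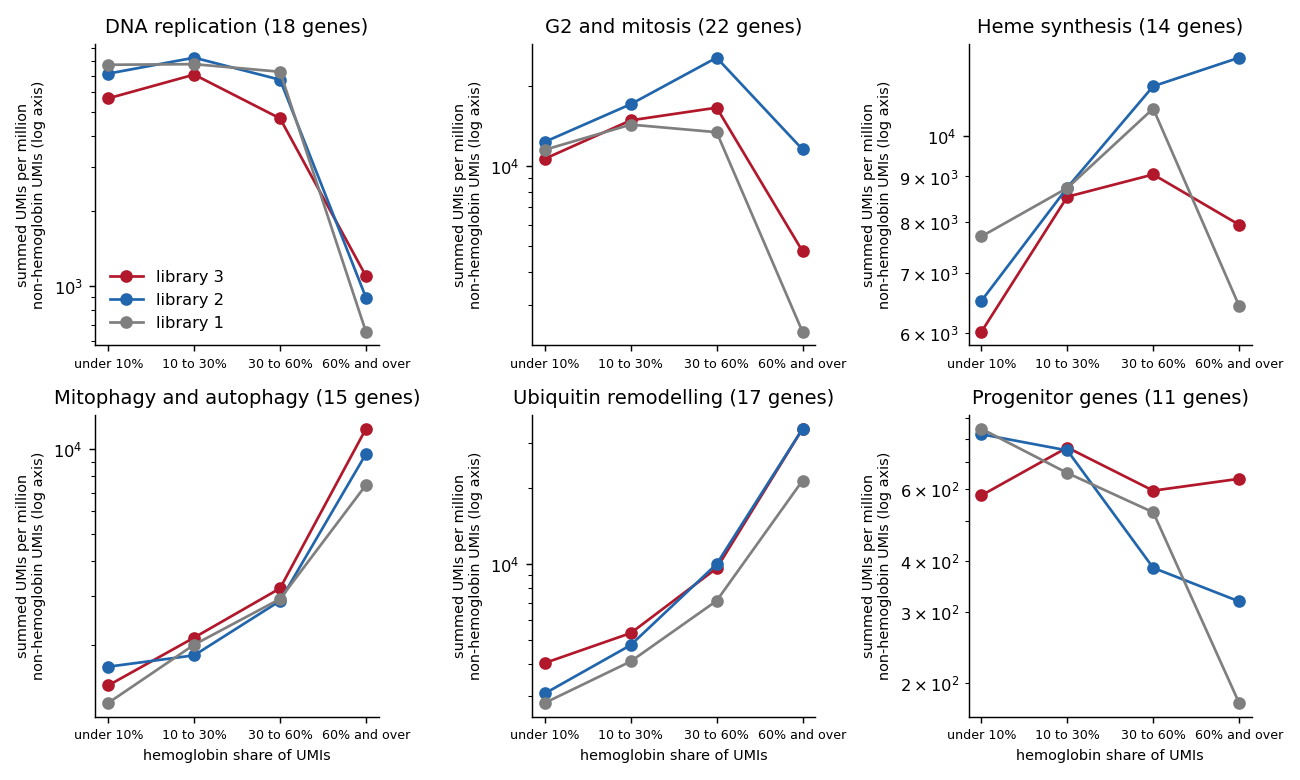
Summed level of 6 gene lists in late erythroid cells by hemoglobin range (x axis, low to high), in CPM of non-hemoglobin UMIs on a log axis, with a line per library. Replication genes are lowest in the top range (1096 CPM in library 3, 899 in library 2), where ubiquitin and mitophagy genes are highest; the lowest range of library 3 holds 16 cells and those of library 1 hold 13 to 42.

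Among single genes, Bpgm, which makes the 2,3-bisphosphoglycerate that lowers the oxygen affinity of hemoglobin, had one of the widest ranges. Its level was 129, 138, 900.3 and 10349.8 CPM from the lowest to the highest range in library 3 and 35.0, 78.2, 322 and 6407 in library 2, a log2 ratio of 6.23 and 6.36 for the top range over 10 to 30%. Tent5c, a poly(A) polymerase, had 21.5, 291, 976 and 6595 CPM in library 3 and 145, 229.6, 829 and 6592 in library 2. Bcl2l1, the survival factor that protects maturing erythroblasts, had 64.4, 63.1, 205 and 1304 CPM in library 3 and 27.5, 41.8, 162 and 1622 in library 2. Gpx1, a peroxidase that guards hemoglobin against peroxide, had 2727, 4705, 7519 and 24640 CPM in library 3 and 3320.1, 5703, 11076 and 24368 in library 2. Of the glycolysis list, Bpgm included, 3 of 9 genes measured in library 3 and 1 of 12 in library 2 were at least 2-fold higher in the top range than at 10 to 30%. The shares of all genes were 12% and 10.4%, so the count of library 2 is near that of all genes. Other genes among those with the widest rise from the lowest to the top range were Cmas, Yipf4, Cd36, Mkrn1 and Tbcel, and those with the widest drop, beside replication genes, were Tmem14c, Kcnq1ot1, Vcam1, Dek, Ccnd3 and Eif3a. Vcam1 is also a macrophage gene. Members holding macrophage genes, defined below, were 25%, 20.7%, 26.5% and 1.27% of late cells from the lowest to the highest range in library 3. In library 2 they were 5.41%, 3.91%, 0.4% and 0%. Their part in the drop of Vcam1 was not tested.

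Heme pathway genes differed in direction. Measured genes at least 2-fold higher and lower in the top range than at 10 to 30% were 2 and 5 of 10 in library 3, and 4 and 2 of 14 in library 2. For library 3 these shares are near those of all genes, of which 12% were higher and 42.8% lower. Fech, ferrochelatase, which puts iron into heme in the last step, had 902, 732, 1249 and 2943 CPM from the lowest to the highest range in library 3 and 585, 893, 1748 and 3814 in library 2. Alad, the second enzyme, peaked in the middle, with 515, 842, 825 and 98.8 CPM in library 3 and 528, 799.5, 1010.5 and 366 in library 2. Tmem14c, a mitochondrial membrane protein that porphyrin transport needs in mice, was lowest in the top range, with 1331, 2225, 1469.9 and 173 CPM in library 3 and 1595, 2055, 1292 and 168 in library 2. The iron importers of the cell also differed: Slc25a37, mitoferrin 1, had 923, 1246, 2151 and 2997 CPM in library 3 and 1095, 1580.2, 3852 and 9115 in library 2, and Tfrc, the transferrin receptor, 1782, 1678, 1410.2 and 785 CPM in library 3 and 1163, 1229.6, 1813 and 2124 in library 2. Mitoferrin 1 was highest in the top range in both libraries, while the transferrin receptor was lowest there in library 3 and highest there in library 2.

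Membrane and skeleton genes differed in direction. Of the skeleton genes, 4 of 13 in library 3 and 6 of 13 in library 2 were at least 2-fold higher in the top range than at 10 to 30%, and 1 in each was lower, against 12% and 10.4% of all genes higher and 42.8% and 48.1% lower. Epb41, protein 4.1, which ties spectrin to the membrane, had 387, 342, 835 and 4414 CPM from the lowest to the highest range in library 3 and 290.0, 386, 988 and 5386 in library 2. Aqp1, the water channel, had 451, 764, 717 and 91.4 CPM in library 3 and 913, 977, 1277 and 519 in library 2. Protein 4.1 was highest in the top range, and Aqp1 lowest there, in both libraries. Of surface protein genes as a list, 2 of 17 measured were higher and 6 lower in library 3, and 4 of 18 higher and 1 lower in library 2. The surface protein counts of library 3 are thus near the shares of all genes.

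The carbonic anhydrases moved apart. Car2, the high activity enzyme, had 3500.3, 5109.6, 5621 and 10539.9 CPM from the lowest to the highest range in library 3 and 3348, 4703, 6745 and 9448 in library 2. Car1, another enzyme of the family and one of the genes used to choose early cells, had 322, 495, 203 and 81.5 CPM in library 3 and 425, 486, 147 and 53.9 in library 2. Hemgn peaked at 30 to 60% hemoglobin in both libraries, at 988, 1601, 2006 and 202 CPM in library 3 and 1033, 1872, 3702 and 1406 in library 2. In the top range it was much lower in library 3 than in library 2, the range that held most of the late cells of library 3. Klf1 had 236, 374, 384 and 69.1 CPM in library 3 and 220.0, 299, 396 and 115 in library 2, lowest in the top range in both. Of the 20 transcription factors on the list, 2 of 18 measured were higher and 9 lower in the top range of library 3 than at 10 to 30%. In library 2, 8 of 20 were higher and 7 lower. Of all genes, 12% were higher and 42.8% lower in library 3, and 10.4% and 48.1% in library 2. The counts of library 3 are thus near the shares of all genes. Foxo3, a stress-response factor on the list, had 64.4, 128, 157 and 318 CPM in library 3 and 173, 187, 329 and 748 in library 2.

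Signalling and stress genes of the lineage followed no single direction. Of the erythropoietin list, 2 of 6 genes measured in library 3 were at least 2-fold higher and 1 lower in the top range than at 10 to 30%, and in library 2 3 of 11 were higher and 2 lower. Epor, the erythropoietin receptor, had 21.5, 113, 157 and 39.5 CPM from the lowest to the highest range in library 3 and 105, 165, 273 and 184 in library 2. Pim1, a survival kinase that cytokine receptors induce, had 258, 238, 448 and 790.1 CPM in library 3 and 280.0, 301, 559.5 and 1847 in library 2. The receptor peaked at 30 to 60% and Pim1 in the top range. Eif2ak1, the heme-regulated kinase that slows globin translation when heme runs short, had 129, 264, 361 and 629.6 CPM in library 3 and 160.0, 248, 461 and 1106 in library 2. Ppp1r15a, a phosphatase subunit that reverses that block, had 472, 534, 868 and 1731 CPM in library 3 and 363, 568, 1301 and 3354 in library 2. Both were highest in the top range, while 4 of the 8 genes of that stress list measured in library 3 and 1 of the 9 in library 2 were at least 2-fold lower there than at 10 to 30%. Of all genes, 12% were higher and 42.8% lower in library 3, and 10.4% and 48.1% in library 2. The stress genes lower in library 3 are thus near the share of all genes.

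Cell cycle exit and defence genes were also mixed. Of the exit list, 2 of 10 genes measured in library 3 were at least 2-fold higher in the top range than at 10 to 30% and 3 lower, with 3 of 12 higher and 4 lower in library 2. Cdkn1b, the cyclin-dependent kinase inhibitor p27, had 172, 155, 243 and 400.0 CPM from the lowest to the highest range in library 3 and 188, 164, 304 and 1014 in library 2. Ccnd3, a cyclin that sets the number of erythroid divisions in mice, had 472, 714, 380.4 and 111 CPM in library 3 and 845, 779.7, 486 and 119.5 in library 2. The inhibitor was highest and the cyclin lowest in the top range of both libraries. Of 16 antioxidant genes, 6 were higher and 4 lower in library 3, and 4 higher and 3 lower in library 2. Cat, catalase, had 107, 79.3, 311 and 1590.0 CPM in library 3 and 55.0, 66.6, 158 and 1465 in library 2. Of 11 nutrient carriers, 2 were higher and 3 lower in library 3, and 7 higher and 1 lower in library 2. Of the iron list, 3 of 12 measured were higher and 6 lower in library 3, and 2 of 17 higher and 6 lower in library 2. Ftl1, ferritin light chain, had 1052, 2764, 3904 and 6896 CPM in library 3 and 1953, 2501, 3322 and 5001 in library 2. Of all genes, 12% were higher and 42.8% lower in library 3, and 10.4% and 48.1% in library 2. Some of these counts, such as iron genes lower in library 3 and higher in library 2, are thus near the shares of all genes.

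**Figure D3:**
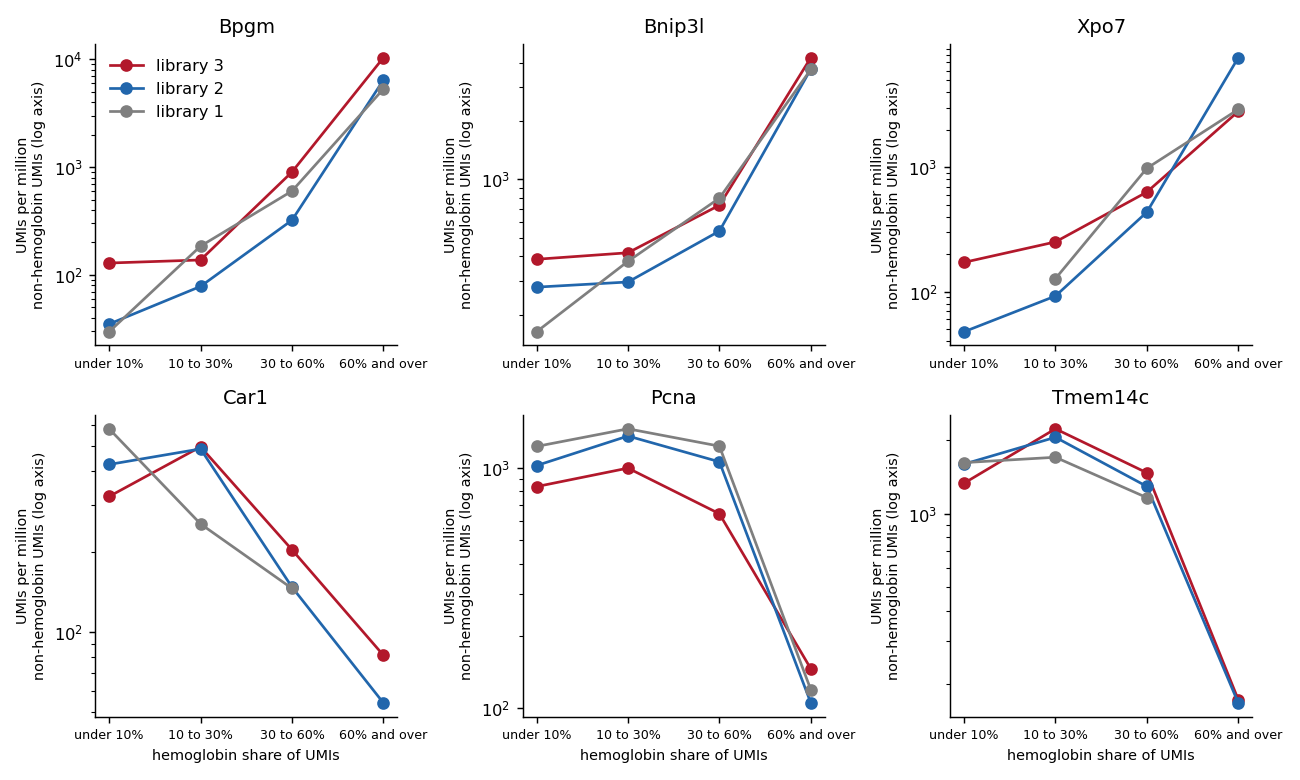
Level of 6 genes in late erythroid cells by hemoglobin range (x axis, low to high), in CPM of non-hemoglobin UMIs on a log axis, with a line per library. Bpgm, Bnip3l and Xpo7 are highest in the top range in libraries 3 and 2, and Car1, Pcna and Tmem14c are lowest there.

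Markers of other cells changed over the same ranges. The 4 promyelocyte genes Elane, Mpo, Prtn3 and Ctsg, which red cell precursors should lack, summed to 1031, 719, 1167 and 3827 CPM from the lowest to the highest range in library 3 and 280.0, 221, 313 and 751 in library 2, and all 4 were at least 2-fold higher in the top range than at 10 to 30% in both. In other kept cells they summed to 4501, 2894 and 5805 CPM in libraries 3, 2 and 1. The 6 immature neutrophil genes had 5 measured in both libraries, of which 5 were higher in library 3 and 0 in library 2. The 10 monocyte and macrophage genes summed to 2126, 2159, 3316 and 1333 CPM in library 3 and 760.0, 754, 374 and 344 in library 2. The 7 neutrophil genes summed to 10415, 7579, 16348 and 21376 CPM in library 3 and 37841, 14864, 22103 and 14674 in library 2. Cells with at least 1% of all UMIs from S100a8 and S100a9 were 8 of 16 in the lowest range of library 3 and 28 of 74 in library 2. In the top range they were 4 of 314 and 3 of 460. The part of these genes and cells in the patterns above was not tested.

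Late cells were next set beside early erythroid cells of the same library. Alas2 and Slc4a1 part the 2 sets and early cells were chosen on Klf1, Car1 and Ermap in the same cells, so this is a description. Of 10115 genes measured in library 3, 19.2% were at least 2-fold higher and 21.6% lower in late than in early cells, with 21.6% and 23.7% of 10159 in library 2, and 11.6% and 10.5% of 3183 in library 1. Ubiquitin and remodelling genes stood at 15 of 17 higher in library 3, 15 of 17 in library 2 and 8 of 15 in library 1, with none lower. Xpo7 had 1031, 993 and 341 CPM in late cells of libraries 3, 2 and 1, against 6.38, 9.85 and 9.16 in early cells. Slfn14, a ribosome-associated endonuclease, had the highest ratio to other kept cells among the genes listed by rank, with 132, 147 and 95.1 CPM of all UMIs in late cells against 2.02, 2.19 and 0.138 in other kept cells of libraries 3, 2 and 1. At least 4-fold higher in late than in other kept cells were 1.13%, 2.3% and 4.01% of measured genes in libraries 3, 2 and 1, and others at the top of that rank were Alas2, the 4 adult globin genes, the globin-like Hbq1b, Apol11b and Tmcc2. Late cells were chosen on Alas2, so its high ratio follows from the rule.

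Progenitor genes were lower in late than in early cells for 6 of 9 measured in library 3, 5 of 9 in library 2 and 2 of 4 in library 1, counts that include Car1, on which early cells were chosen. Kit, the stem cell factor receptor, had 14, 31 and 3 UMIs in all late cells of libraries 3, 2 and 1, which is 8.91, 4.71 and 7.52 CPM, against 49.2, 49.1 and 30.5 CPM in early cells. Heat shock genes were lower in late cells for 7 of 14 measured in library 3, 8 of 14 in library 2 and 7 of 10 in library 1. Mitosis genes differed by library, with 2 of 22 higher in late cells of library 3, 15 of 22 in library 2 and 5 of 22 in library 1. Surface protein genes were higher for 12 of 20, 16 of 19 and 9 of 17 genes measured in libraries 3, 2 and 1, and heme genes for 6 of 14, 10 of 14 and 3 of 12. Of all genes, 19.2% were higher and 21.6% lower in library 3, 21.6% and 23.7% in library 2, and 11.6% and 10.5% in library 1. The mitosis count of library 3 is thus below the share of all genes. A count that includes Alas2, Slc4a1, Klf1 or Ermap, which were used to choose the cells, has the same limit as that with Car1.

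Late cells of library 3 were then compared with those of library 2, the libraries with most members. With CPM of all UMIs, 299 of 8135 genes measured were at least 2-fold higher in library 3 (3.68%) and 1995 lower (24.5%), and the median log2 ratio of all genes was -0.62. Since hemoglobin took 60.8% of the summed UMIs of late cells in library 3 and 42.4% in library 2, the comparison was repeated without hemoglobin UMIs. Then 672 genes were higher (8.26%) and 418 lower (5.14%), with a median of -0.06, and ratios below are of this kind. When members holding macrophage genes, defined below, were also left out, 207 of 7728 genes measured were higher (2.68%) and 511 lower.

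Interferon response genes were higher in library 3. Of the 20 on the list, 19 were at least 2-fold higher in library 3 than in library 2 and none lower, with a median log2 ratio of 2.32; with CPM of all UMIs it was 16 of 20. Isg15, a ubiquitin-like protein made after interferon, had 3605 CPM in library 3, 544 in library 2 and 511 in library 1, a log2 ratio of library 3 over library 2 of 2.73 (95% interval 2.67 to 2.79). Irf7, a transcription factor that amplifies interferon production, had 371 CPM in library 3, 40.7 in library 2 and 62.7 in library 1, a log2 ratio of 3.19 (95% interval 2.98 to 3.40). Oasl2, an antiviral protein, had 479 CPM in library 3, 43.5 in library 2 and 70.2 in library 1, a log2 ratio of 3.46 (95% interval 3.26 to 3.66). Library 1 lay closer to library 2 than to library 3 for all 3 genes. Rsad2, viperin, had 2652 CPM in library 3, 781 in library 2 and 589 in library 1, and Ifit1, which binds viral RNA, 258 CPM in library 3, 29.2 in library 2 and 7.52 in library 1. Irf9 was the only member of the list under 2-fold, with 146 CPM in library 3, 93.3 in library 2 and 72.7 in library 1 and a log2 ratio of 0.64 (95% interval 0.42 to 0.86). Against library 1, 18 of 19 interferon genes measured were at least 2-fold higher in library 3 (9% of 4720 genes). In library 2 against library 1 it was 1 of 17 higher (7.13% of 7604 genes) and 2 lower (5.23%). The 3 ratios share libraries and are not independent.

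Isg15 and Rsad2 also varied with the hemoglobin share. Isg15 had 644, 1269, 2603 and 8749.9 CPM from the lowest to the highest range in library 3, and 60.002, 158, 577 and 2505 in library 2. Rsad2 had 1309.9, 753, 1820.5 and 6735 CPM in library 3 and 77.5, 164, 587 and 4706 in library 2. Both genes were thus highest in the top range in both libraries, and library 3 lay above library 2 in every range. As a list, 5 of 17 interferon genes measured in library 3 and 10 of 15 in library 2 were at least 2-fold higher in the top range than at 10 to 30%, and none was lower. Ifitm3, an antiviral membrane protein, had 666, 845, 854 and 963 CPM in library 3 and 445, 391, 385 and 279.8 in library 2, with no such climb. In CPM of all UMIs, Isg15 stood at 1413, 313 and 373 in late cells of libraries 3, 2 and 1. In the same unit it stood at 189, 44.7 and 38.2 in other kept cells, and at 215, 18.8 and 51.4 in early erythroid cells. After thinning to 1000 UMIs, an Isg15 UMI was seen in 55.6%, 17.6% and 21.4% of late cells of libraries 3, 2 and 1, against 17.8%, 5.19% and 4.58% of kept cells that were neither late nor early.

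**Figure D4:**
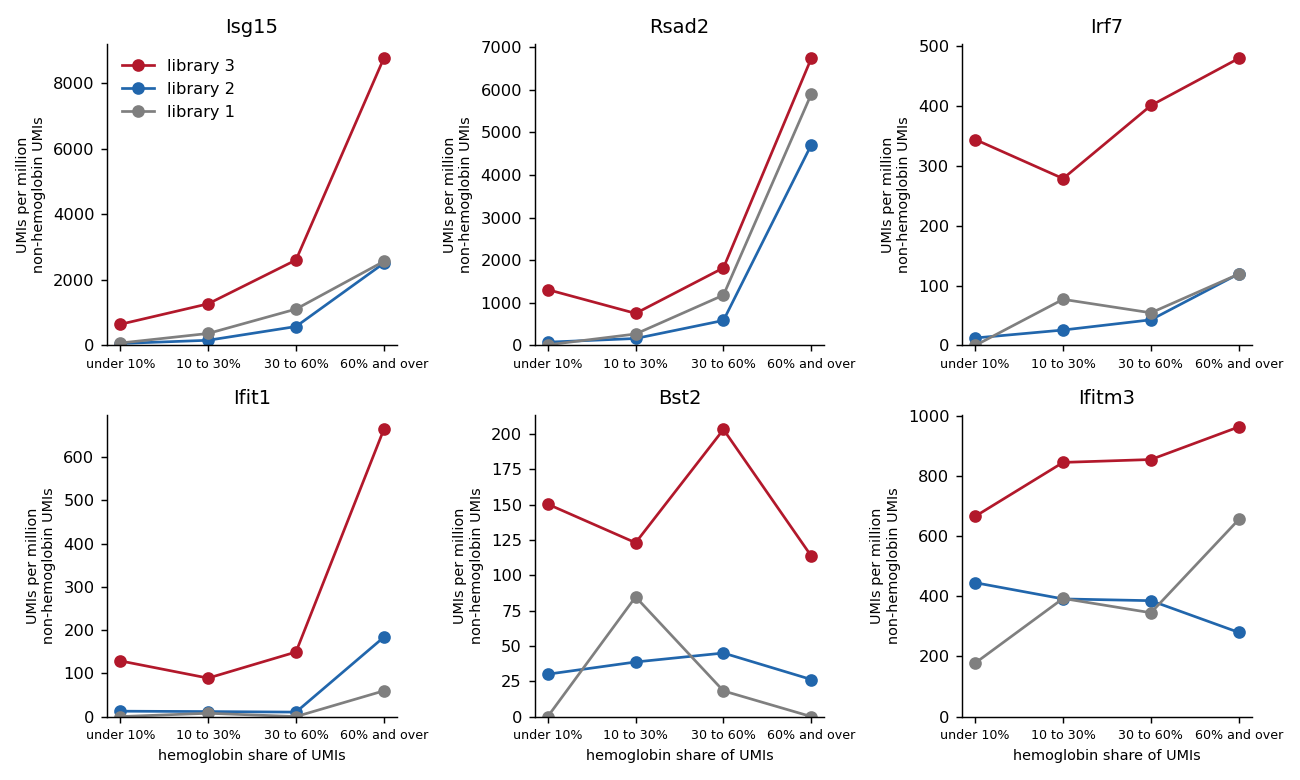
Level of 6 interferon response genes in late erythroid cells by hemoglobin range (x axis, low to high), in CPM of non-hemoglobin UMIs, with a line per library. Library 3 lies above library 2 in every range for all 6 genes, and Isg15, Rsad2 and Ifit1 are highest in the top range of libraries 3 and 2.

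The libraries were also compared within hemoglobin ranges. Under 10%, where library 3 has 16 cells, 4 interferon genes were measured and 2 of them were at least 2-fold higher in library 3 (4.84% of all genes). At least 2-fold higher in library 3 were 15 of 16 interferon genes measured at 10 to 30% hemoglobin (4.48% of all genes), 14 of 16 at 30 to 60% (8.89% of all genes), and 11 of 15 at 60% and over (10.5% of all genes). Outside late cells, 19 of 20 interferon genes were at least 2-fold higher in early erythroid cells of library 3 than of library 2 (2.44% of all genes), and 14 of 20 in other kept cells (1.9% of all genes). These 2 counts use CPM of all UMIs. The median log2 ratio of the list was 2.36 in early cells and 1.34 in other kept cells.

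Macrophage genes moved with this result. Of the 10 monocyte and macrophage genes, 8 were at least 2-fold higher in late cells of library 3 than of library 2, with summed levels of 2315 CPM in library 3, 578 in library 2 and 1268 in library 1, and none of the 10 had 0 UMIs in any library. Members with at least 3 UMIs and at least 10 per 10000 from C1qa, C1qb, C1qc, Mrc1 and Vcam1 numbered 42 of 471 in library 3 (8.92%, 6.50 to 11.9), 20 of 1392 in library 2 (1.44%, 0.880 to 2.21) and 11 of 92 in library 1 (12.0%, 6.12 to 20.4). They held 94.5%, 84.4% and 99.1% of the UMIs of those 5 genes in late cells. Genes of other cell types were also higher in library 3 with all members, at 4 of 4 promyelocyte genes (median log2 ratio 2.51) and 5 of 8 erythroblast island macrophage genes measured (median 2.86). Without the members holding macrophage genes, the interferon count was 16 of 19 genes measured (2.68% of all genes), with a median log2 ratio of 1.72 and an Isg15 ratio of 2.86. The 4 promyelocyte genes stayed higher in library 3 too. Their log2 ratios were then 2.54 for Mpo, 2.54 for Prtn3, 2.11 for Elane and 3.06 for Ctsg.

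Immediate-early genes, which cells switch on within minutes of a stimulus or of dissociation, moved more when those cells were left out. With all members, 8 of 14 were at least 2-fold higher in library 3 than in library 2, with a median log2 ratio of 1.09. Without the members holding macrophage genes it was 2 of 14, with a median of 0.30. Egr1, a transcription factor of that class, had 326 CPM in library 3, 74.3 in library 2 and 92.7 in library 1 with all members, a log2 ratio of 2.13 (95% interval 1.95 to 2.31), and 97.3 CPM in library 3 and 64.9 in library 2 without them. Heat shock genes were higher for 6 of 14 with all members and 5 of 14 without those cells. Hspa1a, an inducible chaperone, had 123, 24 and 1 UMIs in late cells of libraries 3, 2 and 1, or 78.3 CPM in library 3, 3.65 in library 2 and 2.51 in library 1. In other kept cells it had 57.1, 17.4 and 7.59 CPM of all UMIs, a unit in which the late cells would stand lower than the values just given. Class I antigen presentation genes were higher for 5 of 9 with all members and 2 of 8 measured without those cells. Of all genes, 8.26% were higher with all members and 2.68% without those cells, so the counts with and without them stand beside unlike shares.

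**Figure D5:**
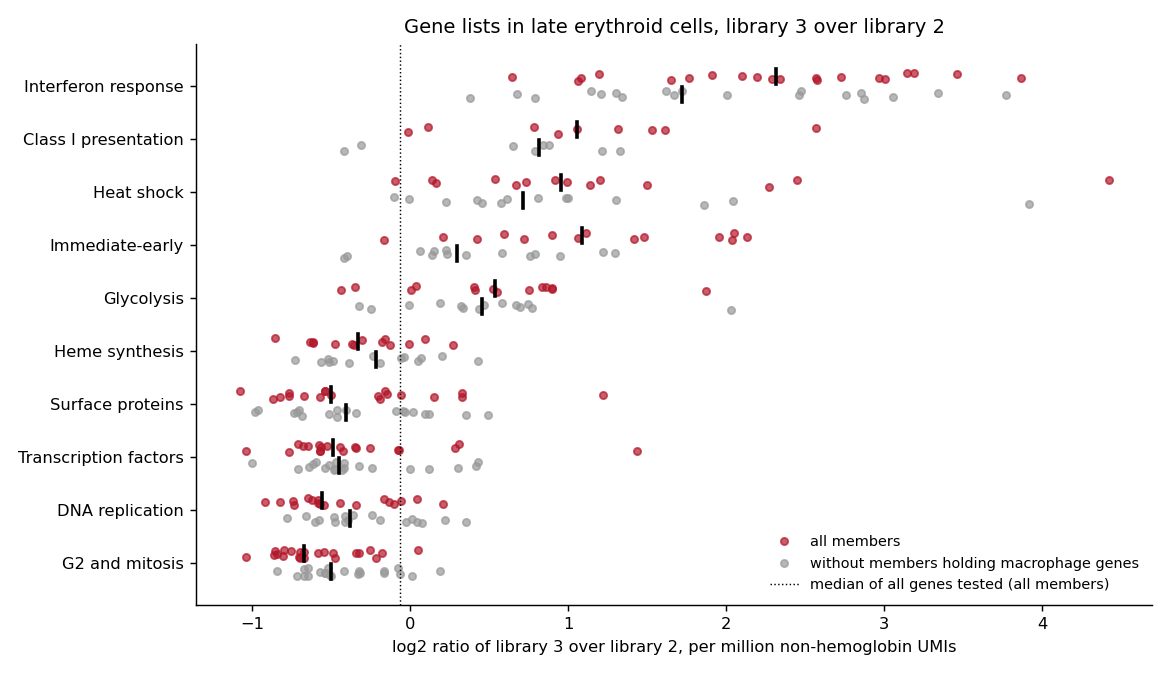
Log2 ratio of library 3 over library 2 in late erythroid cells, in CPM of non-hemoglobin UMIs, by gene list; each point is a gene, black ticks are list medians and the dotted line is the median of all genes (-0.06). Red points use all members and grey points leave out those holding macrophage genes. Of the 10 lists drawn, the interferon list has the highest median in both (2.32, and 1.72 over the 19 genes that still pass the minimum). The immediate-early list moves to 0.30. Promyelocyte genes (2.51) and erythroblast island macrophage genes (2.86), which are not drawn, had higher medians with all members.

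Few genes of the other erythroid lists differed by 2-fold when all members were summed. At least 2-fold higher and lower in library 3 were 0 and 0 of 14 heme genes, 1 and 1 of 19 surface protein genes, 1 and 1 of 20 transcription factors, 0 and 0 of 18 replication genes, and 0 and 1 of 22 mitosis genes. Of all genes, 8.26% were higher and 5.14% lower, so the surface protein and transcription factor counts are near the shares of all genes. The median log2 ratios were -0.33 for heme, -0.50 for surface protein, -0.48 for transcription factor, -0.56 for replication and -0.67 for mitosis genes, all below the -0.06 of all genes. With CPM of all UMIs, 5 heme, 10 surface protein, 10 transcription factor, 10 replication and 16 mitosis genes were at least 2-fold lower in library 3. In that unit 24.5% of all genes were lower. Bpgm had 3013 CPM in library 3, 821 in library 2 and 431 in library 1, a log2 ratio of 1.88 (95% interval 1.82 to 1.93), and Dmtn, the skeleton protein dematin, 305 CPM in library 3, 669.9 in library 2 and 431 in library 1, a log2 ratio of -1.13.

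Within the top hemoglobin range the libraries did differ for these lists. There 27.6% of the 2244 genes measured were at least 2-fold lower in library 3 than in library 2, among them 16 of 19 mitosis genes, 11 of 17 surface protein genes, 9 of 15 transcription factors and 6 of 11 heme genes. The median log2 ratio was -1.69 for mitosis genes and -0.24 for all genes. At 10 to 30% hemoglobin none of the 22 mitosis genes, 18 surface protein genes and 14 heme genes was 2-fold lower, while 4.57% of all genes were. The top range of library 3 had a median of 1085 non-hemoglobin UMIs per cell, against 1436 in library 2, and its promyelocyte genes stood at 3827 CPM against 751. Their part in the difference was not tested.

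Genes at the ends of the comparison included RNAs of other cells. Lowest in library 3 were antibody genes of plasma cells: Igha had 6, 1092 and 11 UMIs in late cells of libraries 3, 2 and 1. Igkc had 66, 2673 and 11 UMIs in the same order. Next was the histone gene Hist1h2ap, with 766 CPM in library 3, 4041 in library 2 and 298 in library 1, and 2 more of the 10 lowest were histone genes, Hist1h4h and Hist1h4a. Among the 10 highest, Mrc1, Maf, Axl and Vcam1 are genes of macrophages, Iigp1, Oasl2, Irf7 and Ifit1 are induced by interferon, and Ctsg is a promyelocyte gene.

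Library 1, with 92 members, differed in the makeup of its RNA. Mitochondrial genes made up a median of 4.25% of all UMIs of a late cell there, against 0.575% in library 3 and 1.27% in library 2, hemoglobin UMIs included. Without hemoglobin UMIs, 12 mitochondrial respiratory chain genes summed to 42255 CPM in library 3, 31813 in library 2 and 63014 in library 1. Library 3 thus lay above library 2 by that measure. The genes mt-Nd4, mt-Nd4l, mt-Nd5 and mt-Atp8 were among the 10 genes farthest above both other libraries. Gm42418, which overlaps ribosomal RNA sequence, was the farthest, with 24504 CPM in library 3, 5846 in library 2 and 50450.5 in library 1. Among the lowest was Coch, a gene of cochlear fibrocytes, with 671, 1381 and 2 UMIs in late cells of libraries 3, 2 and 1. The 9 cochlear stroma genes summed to 528, 395 and 37.6 CPM in late cells of libraries 3, 2 and 1, against 1283, 2901 and 1064 in other kept cells.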

How the data were processed

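Cells were profiled with 10x 3′ single-cell RNA-seq, per the labels' protocols. The authors deposited 1 matrix of raw UMI counts per gene and barcode, made with Cell Ranger 7.1.0, per the file headers, on GRCm39, per the submitters' processing notes; whether reads of strands or gene copies were shared out is not given in the sources used here. Barcodes were kept at 500 or more UMIs, 200 or more genes and at most 20% mitochondrial UMIs. UMIs were summed per library and cell set. Ratios were given for genes with at least 50 summed UMIs, with a floor of 3 counts for a side at 0, and no ratio where that floor would turn the direction. A gene was called at 2-fold (4-fold against other kept cells). With 1 library per group there was no test. Shares carry exact binomial (Clopper-Pearson) intervals and log2 ratios Poisson intervals, at 95%. They cover counting error only.

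Shares of cells with a UMI were compared after thinning each cell to 1000 UMIs, which left out 7, 58 and 8 late cells of libraries 3, 2 and 1. Doublets were called with Scrublet in scanpy at an expected rate of 6%; called cells stayed in, and leaving them out was an alternative. The tools were scanpy 1.11.5, pandas 2.3.3, scipy 1.17.1, matplotlib 3.10.9 and numpy 2.4.6 under Python 3.11.15, with edgeR 4.0.16 for TMM factors only. The sums and ratios were tested on simulated data.

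The members and gene lists were chosen with earlier results of these data known. Genes named in the text are list members, the 10 with the highest ratio to other kept cells, and the 10 at each end of the comparisons of libraries, of hemoglobin ranges and of late with early cells; Tent5c comes from these ranks. A few genes that these rules name are not reported here. The use of hemoglobin-free levels in most of the text, the 10 to 30% range as a base, and the split by macrophage genes were chosen after seeing the data. Fam132b and H1f2 of the lists, like Ahsp, have no value here.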

Additional observations from a re-analysis of the deposited data

How the results depend on the processing

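The share of kept barcodes that were late erythroid moved most with the limit, and the order of libraries 2, 3 and 1 from high to low held under every limit tried. In libraries 3, 2 and 1 it was 9.46%, 17.7% and 0.942% at 10 per 10000 UMIs, and 0.448%, 7.48% and 0.207% at 40 per 10000. With non-hemoglobin UMIs as the denominator it was 7.15% in library 3 and 15.7% in library 2. With hemoglobin of at least 30% in place of the rule it was 6.16%, 10.8% and 0.225%. Without members holding at least 1% S100a8 and S100a9 it was 13.2% in library 2.

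Genes at least 2-fold higher and lower in library 3 than in library 2 (299 and 1995 as reported, with CPM of all UMIs) numbered 745 and 356 with TMM factors, 662 and 436 with median-of-ratios factors, and 672 and 418 without hemoglobin UMIs. They numbered 1490 and 3011 with no minimum, 83 and 1307 with at least 200 summed UMIs, and 130 and 1305 at 40 per 10000. Without called doublets 497 were higher. Within hemoglobin ranges, without hemoglobin UMIs, 72 were higher and 244 lower under 10%, where library 3 has 16 cells, 291 lower at 10 to 30%, 477 higher and 427 lower at 30 to 60%, and 620 lower at 60% and over. Without hemoglobin UMIs and without members holding macrophage genes, 207 of 7728 genes measured were higher (2.68%) and 511 lower. Without hemoglobin UMIs alone, 672 of 8135 were higher (8.26%) and 418 lower.

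Of the lists, interferon genes had 16 to 19 members at least 2-fold higher over the 3 alternatives run with all hemoglobin ranges together (16 as reported). Without hemoglobin UMIs the counts were 6 heat shock and 8 immediate-early genes higher (3 and 4 with all UMIs), and 1 mitosis, 0 replication, 0 heme, 1 surface protein and 1 transcription factor gene lower. Without members holding macrophage genes as well they were 5 and 2 higher, and 0 lower for each of the other 5 lists. Without called doublets 9 immediate-early genes were higher. Leaving out called doublets also gave 36.1% of late cells of library 2 at 60% hemoglobin and over. For the top over the lowest range it gave summed log2 ratios of -3.15 for replication and 2.70 for mitophagy genes in library 2 (-2.99 and 2.52 as reported). The cause of these shifts was not tested beyond what each alternative changes. No paired analysis was possible because each group has 1 library and no replicate. Library 1 has 92 members, so its ranges of hemoglobin are thin.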
